A study of Mus with 96 samples.

Results

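The genes described here are Mlxipl, which encodes the carbohydrate response element binding protein CHREBP, its partner Mlx, and 5 sugar-responsive targets, Pklr, Khk, Gpd1, Txnip and Klf10. They were taken by name from the gene table, 7 genes of 55487, and all 7 reached the minimum of 100 reads summed over libraries that 15548 genes reached. RNA from the livers of 96 mice was sequenced by BRB-seq, a barcoded bulk RNA sequencing method that reads the 3′ end of each mRNA. Expression is given in CPM, the reads of a gene scaled to a common library size. That size is the reads on genes multiplied by a TMM factor, which adjusts for differences in RNA composition between libraries. Because only the 3′ end was read, the alpha and beta isoforms of Mlxipl, which start at different promoters, are counted together, and levels are not compared between genes.

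All mice were C57BL/6J and carried Bmal1 flx/flx alleles. Hep-Bmal1KO mice also carried Alb Cre/+, in which an albumin promoter drives Cre to delete the clock gene Bmal1 (named Arntl in the gene table) in hepatocytes. The deletion is meant to be specific to hepatocytes, and whether all other liver cells kept the gene was not checked here. Their Cre-negative littermates were the Hep-Bmal1WT group. Mice 8 to 10 weeks old were housed under 12 h of light and 12 h of darkness. Acclimation and the diet period came before the livers were taken, so the mice were older by then. Mice ate normal chow, in which 59% was carbohydrate, 14% fat and 27% protein, or for 2 weeks the cdHFD. That diet lacked choline, and 31% of it was carbohydrate, 60% fat and 9% protein, with 2% cholesterol. Each combination of genotype and diet held 24 mice, 4 at each of ZT 2, 6, 10, 14, 18 and 22, where ZT counts hours from lights on. There were 47 females and 49 males.

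CHREBP is a transcription factor that senses sugar in the liver. Phosphorylated products of glucose and fructose activate it, it binds DNA as a pair with MLX at carbohydrate response elements, and it raises genes of glycolysis, fructose use and fat synthesis. Its targets span several roles: liver pyruvate kinase (Pklr) ends glycolysis, ketohexokinase (Khk) starts fructose breakdown, cytosolic glycerol-3-phosphate dehydrogenase (Gpd1) links glycolysis to the glycerol backbone of fat, the arrestin Txnip binds thioredoxin and restrains glucose uptake, and the zinc finger protein KLF10 represses transcription.

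Between 1861740 and 9718615 reads per library fell on genes (median 6412078.5), and the members had median counts per library between 98 for Klf10 and 1862.5 for Khk. The lowest count was 8 reads, for Klf10. Arntl varied over the day in Hep-Bmal1WT chow libraries from a mean of 20.2 CPM at ZT2 to 0.748 CPM at ZT10, and in Hep-Bmal1KO chow libraries from 9.83 to 5.74 CPM, so the genotypes differed in its daily range. Whether the 3′ reads of Arntl lie in the deleted part was not checked, so its level does not test the deletion. When 10 clock genes and the 20 other genes that best separated the genotypes at the remaining ZTs were used to place each library between the genotypes at its own diet and ZT, 7 libraries lay nearer to the other label on both measures: 2 Hep-Bmal1WT chow, 2 Hep-Bmal1KO chow, 2 Hep-Bmal1WT cdHFD and 1 Hep-Bmal1KO cdHFD. Results are given with all libraries as labelled and then without these 7, which are called discordant. The rule that picks them uses the genotype difference in expression. Leaving them out can thus widen a genotype difference, and a result that passes only then is no independent support. Each of the 12 plate columns held libraries of a single genotype and diet, so plate column and group cannot be told apart. Within a group, a column held ZT 2 and 6, ZT 10 and 14, or ZT 18 and 22. Differences between these pairs of times, and the rhythms fitted over them, therefore also cross columns.

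In livers labelled Hep-Bmal1KO, Mlxipl was lower than in Hep-Bmal1WT on both diets, and the cdHFD lowered it in both genotypes. Mlxipl lies at chr5:135089890-135139768 of GRCm38.p6 (ENSMUSG00000005373). Over the day, Hep-Bmal1WT chow libraries ran from 57.1 to 174.5 CPM with a median of 102.9, and Hep-Bmal1KO chow libraries from 40.2 to 145 CPM with a median of 69.9. On the cdHFD, Hep-Bmal1WT libraries ran from 32.3 to 71.4 CPM (median 44.9) and Hep-Bmal1KO libraries from 15.8 to 43.1 CPM (median 28.5). The ranges of the genotypes overlapped on both diets, yet 23 of 24 chow and 24 of 24 cdHFD libraries labelled Hep-Bmal1KO lay below the Hep-Bmal1WT median. The log2 fold change between genotypes was -0.56 ± 0.09 (SE) on chow and -0.65 ± 0.08 on the cdHFD, with adjusted p of 2.1e-05 and 7.39e-07, and the Hep-Bmal1KO mean was lower at 6 of 6 ZTs on each diet. Without the discordant libraries these values were -0.62 and -0.69.

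**Figure D1:**
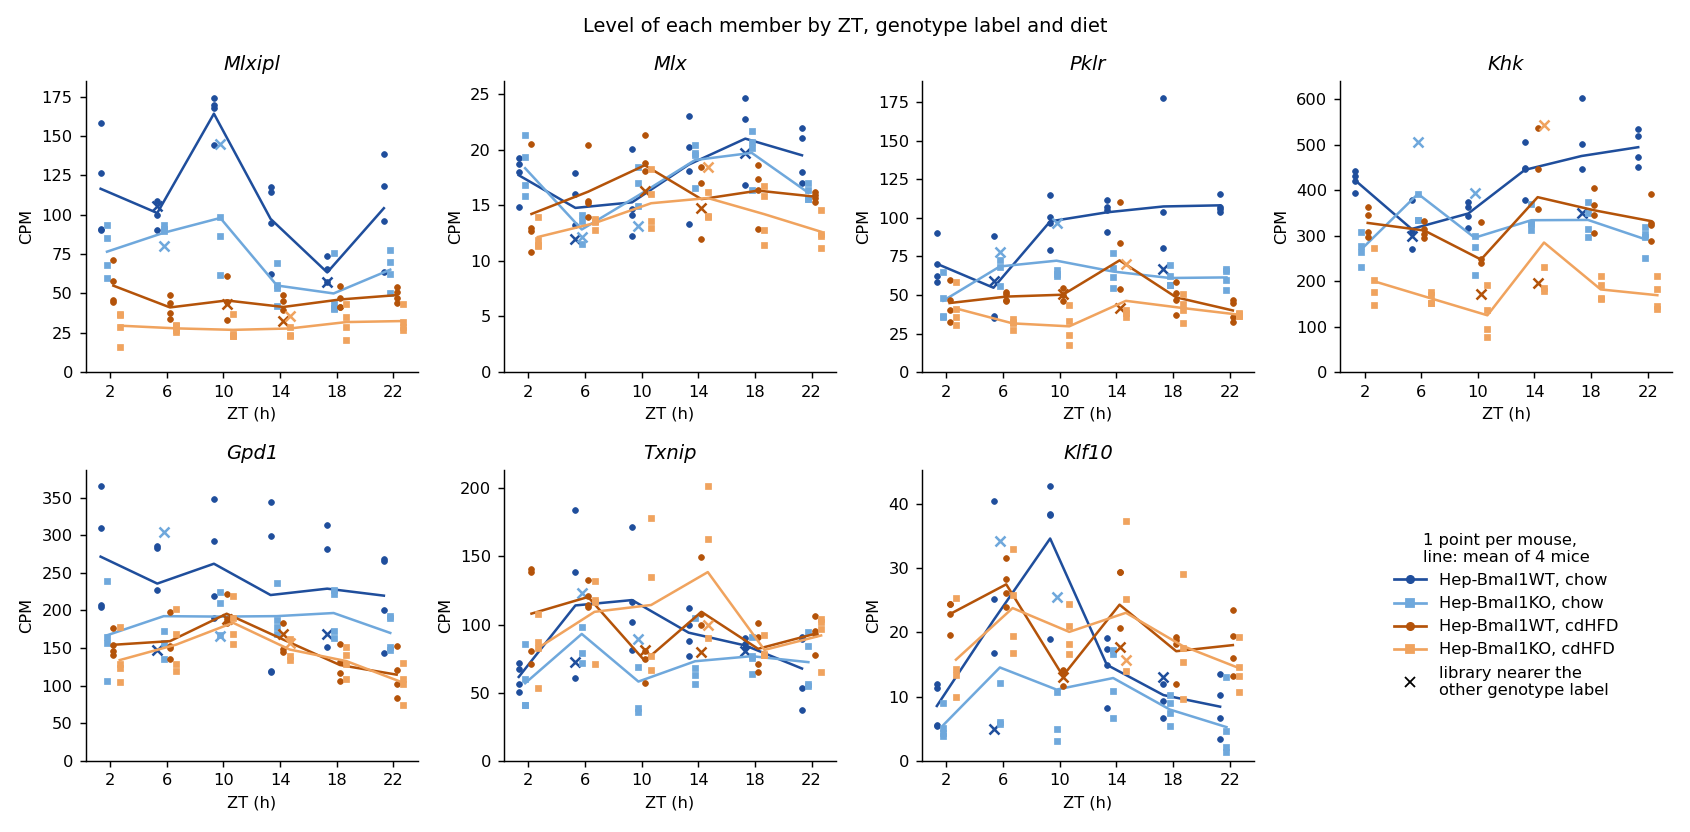
CPM (y axis, from 0) of each member against ZT in hours (x axis), with 1 point per mouse, lines through the mean of 4 mice and colors for genotype label and diet. Crosses are the 7 discordant libraries. The mean of Mlxipl reached 164.2 CPM at ZT10 in Hep-Bmal1WT chow livers and stayed between 26.8 and 32.4 CPM in Hep-Bmal1KO cdHFD livers.

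The effect of diet on Mlxipl was the larger one. The cdHFD changed it by -1.17 ± 0.10 log2 in Hep-Bmal1WT and by -1.26 ± 0.11 log2 in Hep-Bmal1KO livers (adjusted p 9.39e-15 and 4.87e-14), leaving 0.445 and 0.418 of the chow level. In Hep-Bmal1WT, 21 of 24 cdHFD libraries were below every chow library, and in Hep-Bmal1KO 22 of 24. The genotype effect on chow and that on the cdHFD differed by -0.08 ± 0.15 log2 (95% confidence interval -0.37 to 0.22, adjusted p 0.858). The 4 group means therefore ordered from 107.8 ± 36.6 CPM (SD, n = 24) in Hep-Bmal1WT chow through 72.2 ± 24 in Hep-Bmal1KO chow and 46.3 ± 9 in Hep-Bmal1WT cdHFD to 29.4 ± 6.89 in Hep-Bmal1KO cdHFD. The ranges of the middle pair overlapped, and no test compared that pair.

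Mlxipl also varied over the day on chow. At ZT10 the 4 Hep-Bmal1WT chow livers had 169.9, 168.1, 144.4 and 174.5 CPM, and at ZT18 they had 65.4, 73.7, 57.1 and 57.2 CPM. No value at ZT10 overlapped one at ZT18, and the ratio of the 2 means was 2.59. In Hep-Bmal1KO chow livers the highest mean was also at ZT10 (97.95 ± 34.9 CPM, SD, n = 4) and the lowest at ZT18 (49.98 ± 17.1 CPM), where values of both times overlapped. A fitted cosine with a period of 24 h had an amplitude of 0.41 ± 0.12 log2 (SE) with its peak at ZT 7.2 in Hep-Bmal1WT chow and of 0.46 ± 0.10 log2 at ZT 6.2 in Hep-Bmal1KO chow (adjusted p 0.0406 and 0.0182). They passed in 7 and 8 of 12 alternatives. The former amplitude was 0.40 without the discordant libraries and did not pass (adjusted p 0.0681, range 0.0192 to 0.23 over all alternatives). On the cdHFD the amplitudes were 0.15 ± 0.07 and 0.13 ± 0.10 log2, and neither passed. The test of the 2 cosine terms called no difference in daily course between genotypes on chow (adjusted p 0.98) or on the cdHFD (adjusted p 1). Between diets it gave adjusted p of 0.0734 in Hep-Bmal1WT and 0.0564 in Hep-Bmal1KO livers, and DESeq2 gave 0.0469 and 0.0208, within ranges over all alternatives of 0.0469 to 0.365 and 0.0208 to 0.625.

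Mlx (chr11:101086707-101092207, ENSMUSG00000017801), the partner that CHREBP needs to bind DNA, moved less. Its group means were 17.8 ± 3.54 CPM (SD, n = 24) in Hep-Bmal1WT chow, 16.98 ± 2.93 in Hep-Bmal1KO chow, 16.1 ± 2.77 in Hep-Bmal1WT cdHFD and 13.9 ± 2.09 in Hep-Bmal1KO cdHFD. All 4 ranges overlapped, from 10.8 to 24.7 CPM in all. It was lower in Hep-Bmal1KO than in Hep-Bmal1WT livers on the cdHFD (-0.22 ± 0.06 log2, adjusted p 0.0204), and on chow the value was -0.08 ± 0.06 log2 (95% confidence interval -0.20 to 0.05, adjusted p 0.529). The cdHFD lowered it in Hep-Bmal1KO livers by 0.29 ± 0.06 on the log2 scale (-0.29, adjusted p 8.74e-05), and in Hep-Bmal1WT livers the value was -0.14 ± 0.08 log2 (adjusted p 0.128). In Hep-Bmal1WT chow livers Mlx had its fitted peak at ZT 19.4, with an amplitude of 0.25 ± 0.07 log2 (adjusted p 0.046), which was 0.23 log2 without the discordant libraries and did not pass (adjusted p 0.107, range 0.0322 to 0.512 over all alternatives).

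Counted over the members, the test of genotype called 5 of 7 on chow, all lower in Hep-Bmal1KO (Mlxipl, Pklr, Khk, Gpd1 and Klf10), where it called 12.5% of all genes tested. On the cdHFD it called 4 of 7, again all lower (Mlxipl, Mlx, Pklr and Khk), against 9.67% of all genes. These shares are for the fits with all libraries, and those of the reduced fits that follow are not given. With the discordant libraries left out, 6 and 4 members were called. Leaving out in turn each replicate number, which only names a mouse by its place in the deposited list and runs mostly with sex, gave 3 to 5 members on chow and 2 to 4 on the cdHFD, and Klf10 on chow passed in 8 of 12 alternatives and Mlx on the cdHFD in 7 of 12. The median log2 fold change of the members was -0.38 on chow and -0.22 on the cdHFD, where the median over all genes was -0.01 and 0.01. The cdHFD changed 5 of 7 members in Hep-Bmal1WT and 7 of 7 in Hep-Bmal1KO livers, where it changed 55.7% and 62% of all genes, so that a call for diet was common among genes at large.

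**Figure D2:**
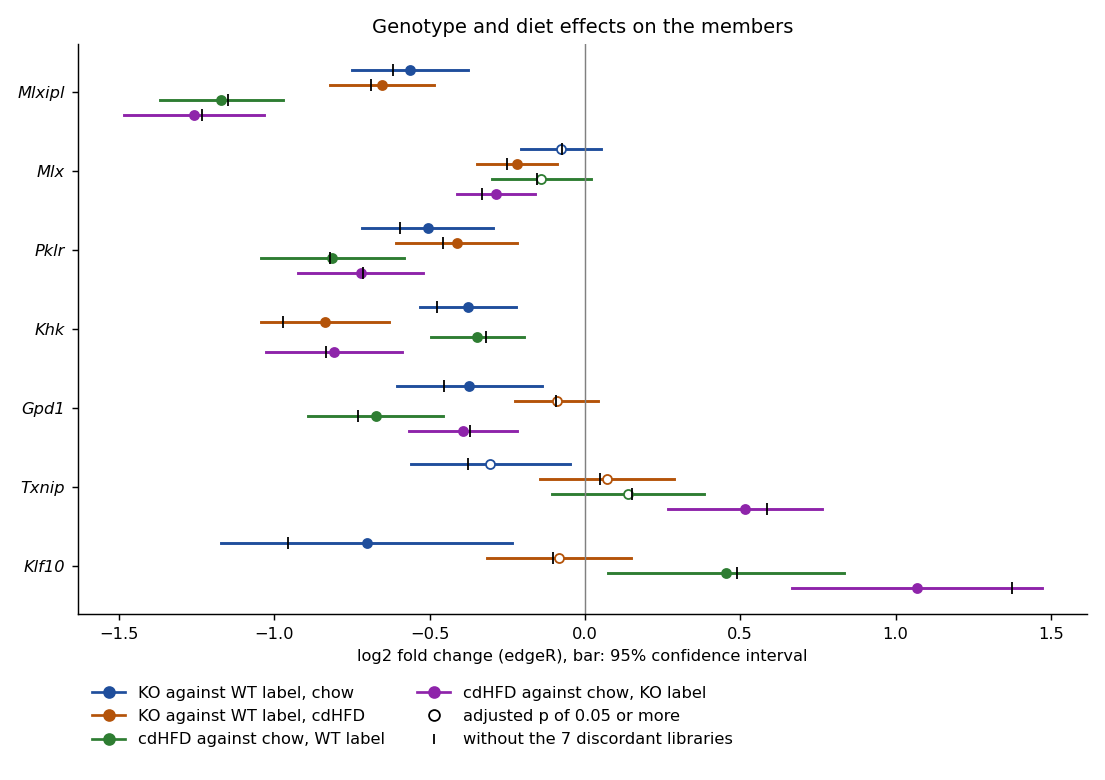
Log2 fold changes (x axis, bars are 95% confidence intervals from edgeR) of the 7 members (y axis) for genotype on each diet and for diet in each genotype. Filled points passed an adjusted p of 0.05, and black ticks give the value without the 7 discordant libraries. Mlxipl and Pklr lie left of 0 in all 4 comparisons, while Klf10 lies at -0.70 for genotype on chow and at 1.07 for diet in Hep-Bmal1KO livers.

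Pklr (chr3:89136122-89146815, ENSMUSG00000041237) was lower in the same 4 comparisons of genotype and diet as Mlxipl. Hep-Bmal1WT chow libraries ran from 35.4 to 178 CPM with a median of 93.9, and Hep-Bmal1KO chow libraries from 35.7 to 96.4 CPM with a median of 63. The Hep-Bmal1KO mean was lower at 5 of 6 ZTs, being 0.568 of the Hep-Bmal1WT mean at ZT22, and at ZT6 the direction turned, with a ratio of 1.25, where Mlxipl had 0.876. The log2 fold change for genotype was -0.51 ± 0.11 on chow (adjusted p 0.000571) and -0.41 ± 0.10 on the cdHFD (adjusted p 0.00307). The cdHFD left 0.569 of the chow level in Hep-Bmal1WT and 0.606 in Hep-Bmal1KO livers (log2 -0.81 ± 0.12 and -0.72 ± 0.10, adjusted p 3.01e-08 and 1.38e-08).

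Khk (chr5:30921436-30931248, ENSMUSG00000029162) had the lowest level relative to its control in Hep-Bmal1KO livers on the cdHFD. There it ran from 77.2 to 543.3 CPM with a median of 176.8, against 171.3 to 536.3 CPM with a median of 325.2 in Hep-Bmal1WT cdHFD livers. The value of 543.3 CPM belonged to a discordant library at ZT14, and the other 23 libraries of that label ran only to 273.3 CPM. The log2 fold change for genotype was -0.84 ± 0.10 on the cdHFD (adjusted p 3.89e-07) and -0.38 ± 0.08 on chow (adjusted p 0.000478), and without the discordant libraries it was -0.97 and -0.48. The cdHFD lowered Khk by -0.35 ± 0.07 log2 in Hep-Bmal1WT and by -0.81 ± 0.11 log2 in Hep-Bmal1KO livers (adjusted p 8.22e-05 and 8.87e-09). Like all diet effects here, these hold for TMM-scaled levels. Whether the fall in Hep-Bmal1WT livers also holds per plain total of reads on genes was not tested.

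The genotype effects on the 2 diets were then compared directly. Of the 7 members 0 passed edgeR's test of genotype by diet, which called 2.23% of all genes, while 4 had an unadjusted p under 0.05 and DESeq2 called 1. Khk came nearest, with a difference of -0.45 ± 0.14 log2 (adjusted p 0.0544). Without the discordant libraries 2 members passed, Khk at -0.50 log2 (adjusted p 0.000832, range 0.000832 to 0.48 over all alternatives) and Klf10 at 0.91 log2 (adjusted p 0.0263, range 0.0263 to 0.49). Those libraries were picked by expression that separates the genotypes, so these 2 calls are no independent support. The share of all genes called without those libraries is not given.

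Gpd1 (chr15:99717587-99725014, ENSMUSG00000023019) was lower in Hep-Bmal1KO livers on chow, with a median of 172.8 CPM (106.2 to 304.5) against 246.4 CPM (118.6 to 365.1), and the groups overlapped. The log2 fold change was -0.37 ± 0.12 (adjusted p 0.0259). It passed in 9 of 12 alternatives, from -0.54 in males alone to -0.12 in females alone (adjusted p 5.4e-05 and 0.713), and the test of genotype by sex gave -0.42 ± 0.18 log2 (adjusted p 0.464). On the cdHFD the medians were 136.3 CPM (74.5 to 219.1) in Hep-Bmal1KO and 151.2 CPM (83.3 to 221.9) in Hep-Bmal1WT livers, a difference of -0.09 ± 0.07 log2 (95% confidence interval -0.22 to 0.04, adjusted p 0.471). The cdHFD lowered Gpd1 by -0.67 ± 0.11 log2 in Hep-Bmal1WT and by -0.39 ± 0.09 log2 in Hep-Bmal1KO livers (adjusted p 4.95e-07 and 0.000104). In females alone these values were -0.16 and -0.12 log2 and did not pass (adjusted p 0.2 and 0.413), and in males alone they were -1.09 and -0.66 log2.

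Txnip and Klf10 took another course from Pklr, Khk and Gpd1 when the diet changed. Txnip (chr3:96557957-96561857, ENSMUSG00000038393) was higher on the cdHFD in Hep-Bmal1KO livers, with a median of 94.4 CPM (53.1 to 201.5) against 70.4 CPM (35.7 to 122.9) on chow. The log2 fold change was 0.52 ± 0.12 (adjusted p 0.000309), and the cdHFD mean was higher at 6 of 6 ZTs. It ran from 56.4 to 105.3 CPM in the means of males and from 87.04 to 100.7 CPM in those of females, 0.89 log2 in males alone and 0.15 log2 in females alone, which did not pass (adjusted p 2.16e-06 and 0.38). In Hep-Bmal1WT livers it was 0.14 ± 0.12 log2 (95% confidence interval -0.11 to 0.38, adjusted p 0.341). Between genotypes Txnip gave -0.30 ± 0.13 log2 on chow, which did not pass (adjusted p 0.115). That value was -0.38 log2 without the discordant libraries and passed there (adjusted p 0.0457, range 0.0244 to 0.345 over all alternatives). On the cdHFD it was 0.07 ± 0.11 log2 (adjusted p 0.782).

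Klf10 (chr15:38291464-38300711, ENSMUSG00000037465) varied most between mice of 1 condition, with a within-condition SD of 0.675 on the log2 CPM scale against 0.213 for Mlx and 0.326 for Mlxipl. On chow, Hep-Bmal1WT livers had 3.32 to 42.8 CPM (median 12.5) and Hep-Bmal1KO livers 1.32 to 34.2 CPM (median 7.09), a log2 fold change of -0.70 ± 0.23 (adjusted p 0.0369). The 34.2 CPM belonged to a discordant library at ZT6, without the 7 discordant libraries the highest Hep-Bmal1KO chow value was 17.3 CPM, and the fold change was -0.95 log2. The cdHFD raised Klf10 by 1.07 ± 0.20 log2 in Hep-Bmal1KO and by 0.45 ± 0.19 log2 in Hep-Bmal1WT livers (adjusted p 7.72e-06 and 0.0374). The latter passed in 8 of 12 alternatives (range of adjusted p 0.00225 to 0.72). It averages over times that differed in direction. In Hep-Bmal1WT the cdHFD mean was higher at 5 of 6 ZTs, up to 2.67 of the chow mean at ZT2, and was 0.382 of it at ZT10. In Hep-Bmal1WT males the mean went from 12.1 to 20.57 CPM (0.90 log2 in males alone), and in females it was 20.81 CPM on chow and 20.41 on the cdHFD (0.11 log2 in females alone). The test of diet by sex for Klf10 there gave 0.74 ± 0.33 log2 (adjusted p 0.276). In Hep-Bmal1KO, 24 of 24 cdHFD libraries were above the chow median of 7.09 CPM, as the lowest had 9.68 CPM. Between genotypes on the cdHFD the value was -0.08 ± 0.12 log2 (adjusted p 0.746).

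Markers of other cells of the liver moved with the diet, to a degree that differed between lists. The summed level of 7 macrophage and monocyte markers ran from 166.5 to 456.9 CPM in Hep-Bmal1WT chow and from 760.9 to 1880 CPM in Hep-Bmal1WT cdHFD livers. With the cdHFD 7 of 7 rose in each genotype, beside 28.4% and 32.4% of all genes in Hep-Bmal1WT and Hep-Bmal1KO. The sum of 5 hepatocyte markers, which carry the tissue label and were the most abundant of the lists, ran from 91550 to 207200 CPM on chow and from 53460 to 90310 CPM on the cdHFD in Hep-Bmal1WT livers. In each genotype 5 of 5 fell, beside 27.3% and 29.6% of all genes. Of 5 stellate and fibroblast markers 5 rose in each genotype, and of 4 endothelial markers 3 rose and 1 fell. In Hep-Bmal1WT and Hep-Bmal1KO, 2 and 3 of 5 cholangiocyte and 4 and 3 of 5 lymphocyte and neutrophil markers rose, and 0 fell. In Hep-Bmal1KO against Hep-Bmal1WT livers on the cdHFD, 4 of 5 stellate and fibroblast markers and 3 of 5 cholangiocyte markers rose, and on chow 0 and 2 of 5. Of all genes 4.75% were called higher on the cdHFD and 7.08% on chow. Of the macrophage and monocyte markers 3 of 7 rose and 1 fell on the cdHFD, and 0 of 7 changed on chow. Of the lymphocyte and neutrophil markers 2 of 5 rose on the cdHFD and 0 on chow, and 0 of 4 endothelial markers changed on either diet. Of the hepatocyte markers 2 of 5 fell on the cdHFD and 1 of 5 on chow, beside 4.92% and 5.45% of all genes. Their summed level had a median of 102500 CPM (77960 to 210300) in Hep-Bmal1KO against 150400 CPM in Hep-Bmal1WT chow livers. On the cdHFD it was 61850 CPM (47870 to 83670) against 73850 CPM. That sum is weighted to the most abundant markers. The median log2 fold change of the 5 markers was -0.006 on chow and 0.04 on the cdHFD. Without the discordant libraries 1 rose and 1 fell on chow. None of the markers was at 0 in any of the 4 groups. In bulk liver, fewer hepatocytes and less RNA of a gene per hepatocyte cannot be told apart, and the part of these cells in the members' changes was not tested.

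On chow, 6 of 7 members were rhythmic in Hep-Bmal1WT livers, where the test called 18.7% of all genes, and 1 of 7, Mlxipl, in Hep-Bmal1KO livers, where it called 4.34%. These counts were 4 and 1 without the discordant libraries, and with each replicate number left out in turn 1 to 5 and 0 to 1. The shares of all genes called in these smaller fits are not given, so the lower counts are not read as a trait of the members. Pklr and Khk reached their fitted peaks at ZT 16.99 and ZT 19.6 in Hep-Bmal1WT chow livers, with amplitudes of 0.46 ± 0.12 and 0.31 ± 0.06 log2 (SE, adjusted p 0.0194 and 0.00199). Those peaks fell in the dark phase, while the peak of Mlxipl in the same livers fell in the light phase. Klf10 peaked at ZT 10.04 with the largest amplitude among the members in that group, 0.97 ± 0.22 log2 (adjusted p 0.000834), and Txnip at ZT 10.8 with 0.44 ± 0.13 log2 (adjusted p 0.0291). Gpd1 had an amplitude of 0.14 ± 0.15 log2 there (adjusted p 0.81).

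The daily course of Klf10 shows in single livers. At ZT10, Hep-Bmal1WT chow livers had 18.9, 38.4, 38.5 and 42.8 CPM, and at ZT22 they had 6.64, 3.32, 13.6 and 10.2 CPM, with no overlap. In Hep-Bmal1WT cdHFD livers the ZT10 values were 14.0, 14.1, 13.1 and 11.7 CPM, below all 4 chow values at that time. There the amplitude was 0.18 ± 0.12 log2, and the test of diet by rhythm gave 0.97 log2 as the joint size of the 2 differing terms (adjusted p 0.0108). Klf10 was the only 1 of 7 members called by this test in Hep-Bmal1WT livers, where 6.13% of all genes were called, and it was called in 7 of 12 alternatives.

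**Figure D3:**
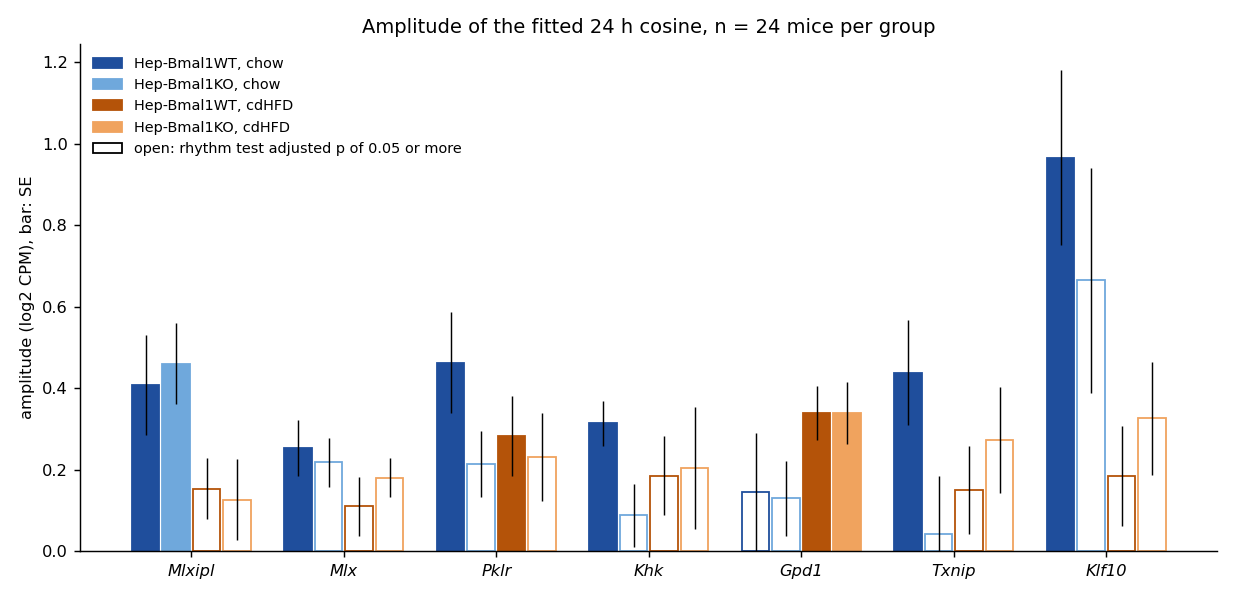
Amplitude in log2 CPM (y axis, from 0, error bars are SE) of a cosine with a period of 24 h fitted to the 24 livers of each genotype label and diet, for each member (x axis). Filled bars passed the rhythm test at an adjusted p of 0.05. Mlxipl is filled in both chow groups, Gpd1 in both cdHFD groups, and Klf10 is tallest at 0.97 in Hep-Bmal1WT chow livers.

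On the cdHFD, 2 of 7 members were rhythmic in Hep-Bmal1WT livers, Pklr and Gpd1, against 14.3% of all genes, and 1 of 7, Gpd1, in Hep-Bmal1KO livers, against 3.81%. Gpd1 had nearly the same course in both, with amplitudes of 0.34 ± 0.07 and 0.34 ± 0.08 log2 and peaks at ZT 9.2 and ZT 9.9 (adjusted p 0.00287 and 0.0208). Its highest means were 195.6 and 183.5 CPM at ZT10 and its lowest 114.5 and 103.9 CPM at ZT22. The amplitude of Pklr was 0.28 ± 0.10 log2 in Hep-Bmal1WT cdHFD livers, with its peak at ZT 12.5 (adjusted p 0.0494). It passed in 5 of 12 alternatives (range 0.0222 to 0.327), and with each replicate number dropped in turn 1 member, not 2, was called in that group. The rhythm of Gpd1 passed in 11 of 12 alternatives in Hep-Bmal1WT and in 7 of 12 in Hep-Bmal1KO cdHFD livers.

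A rhythm that passed in one genotype and not in the other was not thereby shown to differ. On chow, edgeR's test of genotype by rhythm called 0 of 7 members and 0.386% of all genes, with 2 members at an unadjusted p under 0.05 (Pklr and Khk) and 1, Khk, called by DESeq2. On the cdHFD it called 0 of 7 and 0.431% of all genes, with 1 at an unadjusted p under 0.05 and 0 called by DESeq2. The test of diet by rhythm in Hep-Bmal1KO livers called 0 of 7 and 0.907% of all genes, with 2 at an unadjusted p under 0.05 and 1, Mlxipl, called by DESeq2.

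Whether the targets follow the level of Mlxipl was first asked of the condition means. Over the 24 combinations of genotype, diet and ZT, the Pearson correlation of the mean log2 CPM with that of Mlxipl was 0.767 for Pklr, 0.717 for Khk and 0.714 for Gpd1, and 0.35 for Mlx, -0.315 for Klf10 and -0.35 for Txnip. Without the 2 conditions farthest from the median of Mlxipl (Hep-Bmal1WT chow at ZT10 and ZT2) the values were 0.737, 0.739, 0.608, 0.413, -0.538 and -0.481. These points share genotype and diet within a group and order largely by diet, so they are a description and carry no test.

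Within a diet the pattern was another. Over the 12 chow conditions Klf10 had a correlation of 0.564 with Mlxipl and Txnip of 0.302, while Pklr had 0.345, Khk 0.195 and Gpd1 0.609. Over the 12 cdHFD conditions Khk had 0.811 and Pklr 0.559, while Klf10 had 0.06, Txnip -0.206 and Gpd1 -0.0125. Over the 6 ZTs of Hep-Bmal1WT chow livers, Klf10 had 0.606 and Gpd1 0.592, and Pklr and Khk had -0.111 and -0.521. In that group the highest means of Pklr and Khk were at ZT22, and the highest of Klf10, Txnip and Mlxipl at ZT10.

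**Figure D4:**
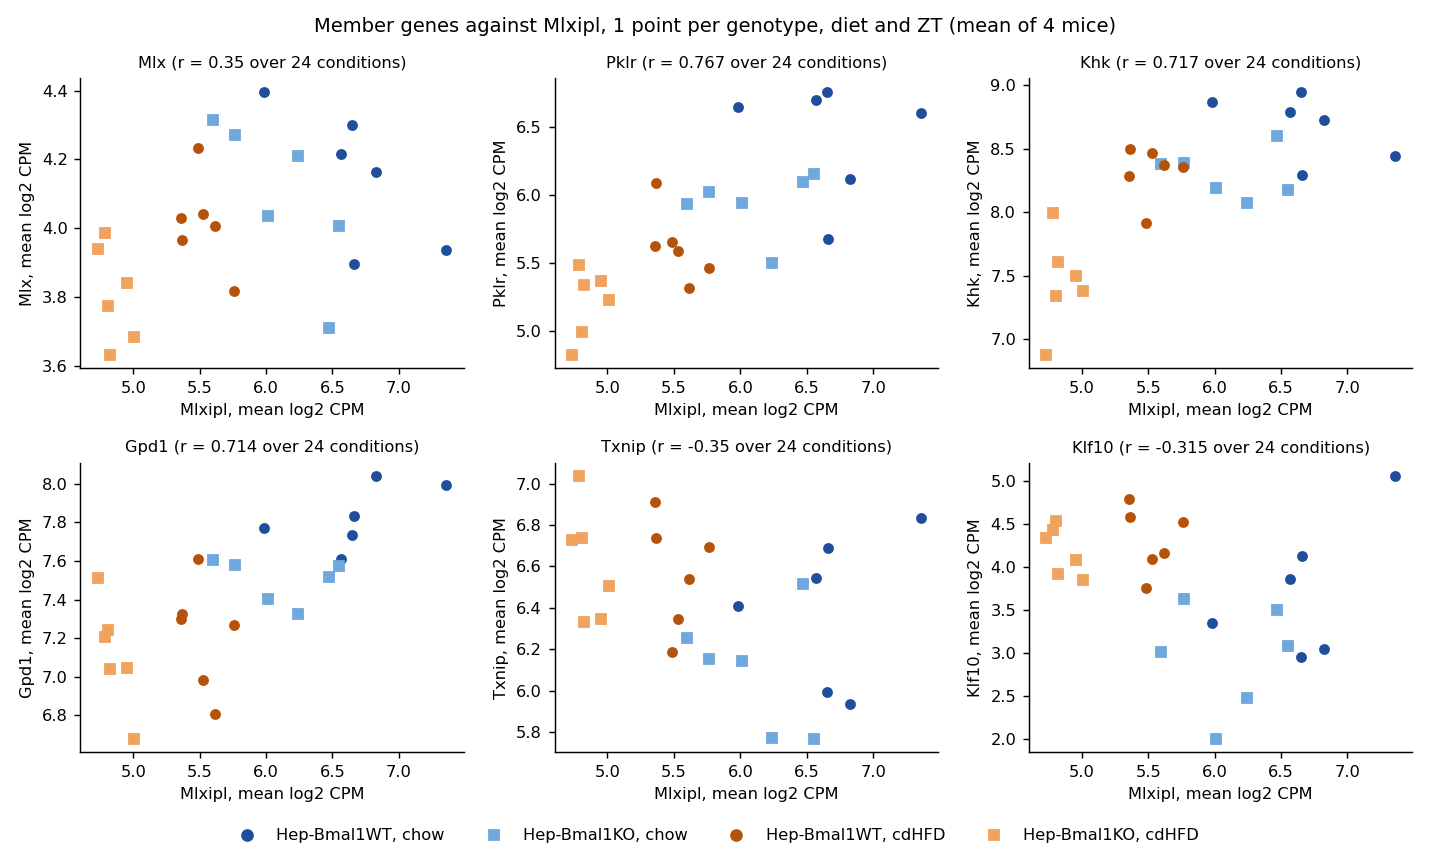
Mean log2 CPM of each other member (y axis) against that of Mlxipl (x axis), 1 point per genotype label, diet and ZT, each the mean of 4 mice. The 6 Hep-Bmal1KO cdHFD points lie lowest on the x axis, and the correlations above the panels run from -0.35 for Txnip to 0.767 for Pklr.

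Between mice of the same genotype, diet and ZT, no target passed the test of following Mlxipl. The within-condition SD of Mlxipl was 0.326 log2, and each gene was regressed on it over the 96 libraries with the 24 conditions held fixed. Klf10 had a slope of 0.66 ± 0.22 log2 per log2 unit of Mlxipl (SE, adjusted p 0.0652), Khk 0.26 ± 0.11 (adjusted p 0.131), Pklr 0.24 ± 0.12 (adjusted p 0.256), Txnip 0.11 ± 0.15, Mlx 0.02 ± 0.08 and Gpd1 -0.25 ± 0.13. The edgeR test called 0 of 6 members and 4.88% of all genes, with 3 of 6 at an unadjusted p under 0.05 (Klf10, Khk and Pklr) and 1, Klf10, called by DESeq2. Without the discordant libraries the slopes of Khk and Pklr were 0.10 and 0.10, and that of Klf10 was 0.62 (adjusted p 0.0611, range 0.033 to 0.816 over all alternatives). Both variables come from the same library, so depth and composition are shared between them. A condition held mice of both sexes, and the main fit did not hold sex fixed. In each of the 4 groups alone the slope of Klf10 was above 0, from 0.45 to 0.92, that of Txnip was above 0 in both chow groups and below 0 in both cdHFD groups, and no slope passed.

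**Figure D5:**
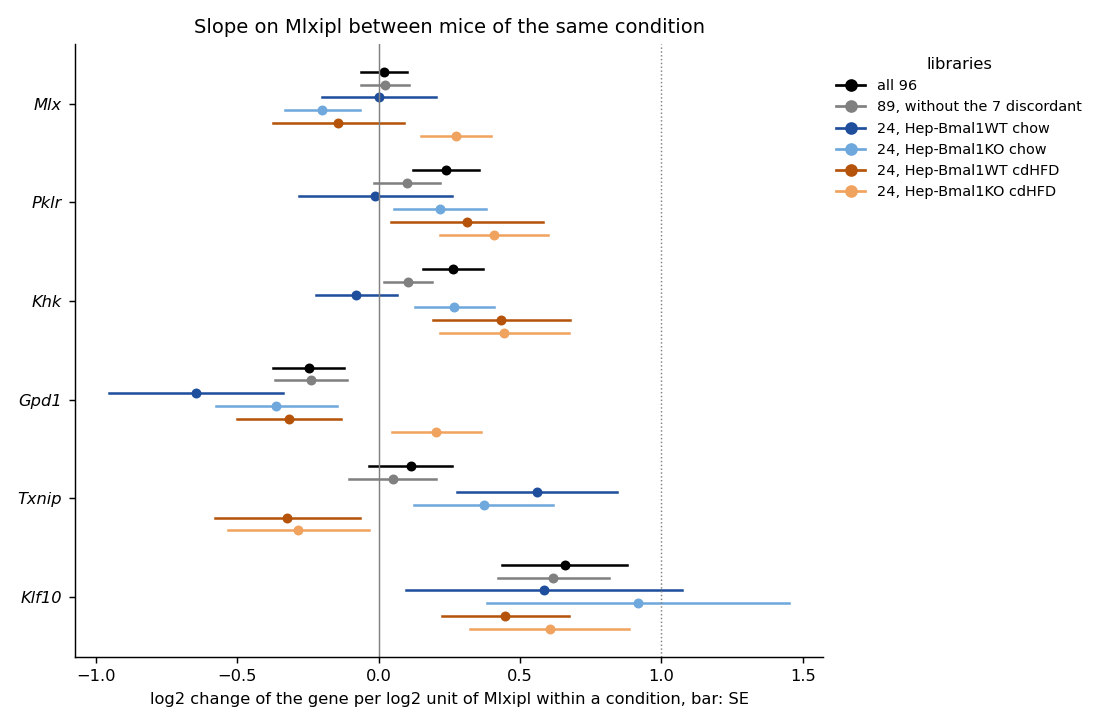
Log2 change of each other member per log2 unit of Mlxipl (x axis, bars are SE) between mice of the same condition, for all 96 libraries, for the 89 that were not discordant and for each group of 24. The solid line marks 0 and the dotted line 1. Klf10 lies right of 0 in all 6 sets of libraries, and Gpd1 left of 0 in 5 of them.

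Other genes tied to CHREBP were counted from 6 lists of 36 genes in all, of which 35 were tested. Among the lipogenic targets, 8 of 8 tested fell with the cdHFD in each genotype, beside 27.3% and 29.6% of all genes, led by ATP citrate lyase (Acly), whose mean went from 259.2 ± 79.7 to 66.4 ± 18 CPM in Hep-Bmal1WT livers (SD, n = 24, -1.97 ± 0.10 log2, adjusted p 2.28e-22). By genotype, 5 of 8 fell on the cdHFD, beside 4.92% of all genes. They were led by acetyl-CoA carboxylase 2 (Acacb, -1.08 ± 0.18 log2, adjusted p 3.98e-05) and Thrsp, a lipogenesis cofactor (-1.59 ± 0.29 log2, adjusted p 0.000158). On chow 1 of 8 fell, Thrsp (-0.85 ± 0.24 log2, adjusted p 0.0137), beside 5.45% of all genes. The median log2 fold change of this list was -1.91 and -2.05 for diet and -0.50 and -0.27 for genotype on the cdHFD and on chow, beside medians over all genes between -0.01 and 0.02.

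Between mice of the same condition, most of these lipogenic genes rose with Mlxipl when all libraries were used. Of 8 tested, 7 had a slope above 0 that passed, beside 2.23% of all genes. The list median was 0.66, beside a median over all genes of 0.00274. Here too both variables come from the same library, and the fit did not hold sex fixed. Fatty acid synthase (Fasn) had a slope of 1.09 ± 0.16 (adjusted p 4.33e-06) and the elongase Elovl6 one of 1.04 ± 0.16 (adjusted p 7.32e-06). With the discordant libraries left out, 4 of 8 passed, among them Fasn (0.95, adjusted p 0.00011) and Elovl6 (0.86, adjusted p 0.000288). There 3.56% of all genes passed in either direction. Over all 6 lists 9 of 35 genes had a slope above 0 that passed and 2 of 35 one below 0, beside 2.23% and 2.65% of all genes. Without the discordant libraries these counts were 5 and 0.

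Genes that take up sugar and carry out its first steps were lower in Hep-Bmal1KO livers for 3 of 5 on chow and 4 of 5 on the cdHFD, where 5.45% and 4.92% of all genes were called lower. Triokinase (Tkfc), which acts in fructose breakdown after Khk, went from 310.3 ± 83.9 to 217 ± 43.4 CPM on chow (-0.50 ± 0.08 log2, adjusted p 8.13e-06), and the glucose transporter Slc2a2 from 208.1 ± 54.1 to 137.2 ± 49.5 CPM (-0.59 ± 0.11 log2, adjusted p 8.9e-05). In the same list 1 gene rose on chow (Gckr, the regulator of glucokinase, 0.41 ± 0.09 log2), which the naming rule did not cover. With the cdHFD 3 of 5 fell in each genotype, beside 27.3% and 29.6% of all genes. Of 7 genes of lower glycolysis, 3 fell and 1 rose in Hep-Bmal1KO livers on chow and 4 fell on the cdHFD, led on both by Gapdh (-0.32 ± 0.06 and -0.43 ± 0.06 log2, adjusted p 0.000129 and 7.6e-07).

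Of the 5 genes of NADPH supply and the pentose phosphate path, 4 passed for diet in Hep-Bmal1WT and 5 in Hep-Bmal1KO livers, where 55.7% and 62% of all genes did. In each genotype 2 of 5 rose (28.4% and 32.4% of all genes), led by glucose-6-phosphate dehydrogenase (G6pdx, from 5.35 ± 1.78 to 11.5 ± 2.16 CPM in Hep-Bmal1WT, adjusted p 7.09e-12), and 2 and 3 of 5 fell in Hep-Bmal1WT and Hep-Bmal1KO (27.3% and 29.6% of all genes), led by malic enzyme (Me1, from 231.5 ± 74.9 to 73.5 ± 16.5 CPM in Hep-Bmal1WT, adjusted p 5.32e-20). By genotype, 2 of 5 fell on each diet, beside 5.45% of all genes on chow and 4.92% on the cdHFD. Of 6 other sugar-induced genes, Fgf21, a hepatokine, rose with the cdHFD from 4.58 ± 5.09 to 88.03 ± 65.8 CPM in Hep-Bmal1WT livers (adjusted p 1.63e-15), while 3 and 4 fell in Hep-Bmal1WT and Hep-Bmal1KO. By genotype 1 of these 6 was called on chow, beside 12.5% of all genes, and 0 on the cdHFD, beside 9.67%. It was G6pc, higher in Hep-Bmal1KO (0.62 ± 0.20 log2, adjusted p 0.0302), the opposite direction to Mlxipl. Mlxip, the paralog of Mlxipl also called MondoA, rose with the cdHFD by 0.62 ± 0.12 log2 in each genotype (adjusted p 2.34e-05 and 1.55e-05). None of the 4 partners and paralogs of MLX passed for genotype.

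By the correlation over the 24 condition means, the 5 genes most like Mlxipl among 6901 with a mean of at least 10 CPM were Pcyt2 (0.958), Entpd8 (0.946), Rdh16 (0.944), Ces1e (0.944) and AC118710.1 (0.939). Pklr ranked 774, Khk 1086, Gpd1 1108, Mlx 2803, Klf10 4982 and Txnip 5080 of the 6901. Ces1e, a carboxylesterase, had group means of 91.9 ± 23.1 CPM in Hep-Bmal1WT chow, 54.7 ± 22.2 in Hep-Bmal1KO chow, 29.6 ± 9.96 in Hep-Bmal1WT cdHFD and 18.9 ± 7.13 in Hep-Bmal1KO cdHFD (SD, n = 24), the same order as Mlxipl.

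Sex was the last factor examined. With the 24 conditions held fixed, males had less Klf10 than females (13.5 ± 8.14 against 19.4 ± 9.74 CPM, n = 49 and 47, -0.62 ± 0.11 log2, adjusted p 4.38e-06) and less Txnip (83.5 ± 32.4 against 97.98 ± 30.9 CPM, -0.29 ± 0.08 log2, adjusted p 0.00427). These were 2 of 7 members, where 17.2% of all genes were called. Within single groups it did not pass everywhere. In Hep-Bmal1WT cdHFD livers Klf10 had 20.57 CPM in males and 20.41 in females (-0.03 ± 0.11 log2, adjusted p 0.937), and in Hep-Bmal1KO cdHFD livers Txnip had 105.3 and 100.7 CPM (0.09 ± 0.16 log2, adjusted p 0.884). For Mlxipl the value was -0.11 ± 0.06 log2 (adjusted p 0.24). Xist was above the sum of 4 Y-linked genes in labelled females, and below it in males, in all but 1 library. That library, a Hep-Bmal1KO cdHFD female at ZT10, had 0.405 CPM of Xist, where the female median was 59.5 CPM. Its 0.608 CPM of the Y-linked genes lay in the range of the females (0 to 2.97 CPM), and the lowest male had 64 CPM. Only its Xist was thus unusual for the label.

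Sex effects within each group were examined after the values had been seen. In Hep-Bmal1WT chow livers, Gpd1 was higher in males, 147.7 to 365.1 CPM with a median of 295.4, than in females, 118.6 to 282.7 CPM with a median of 195.1. The difference was 0.68 ± 0.13 log2 (adjusted p 0.000297), and Klf10 was lower in males by -0.81 ± 0.19 log2 (adjusted p 0.0047), which made 2 of 7 members where 10.9% of all genes were called. The lowest male value belonged to a discordant library, and without these the difference in Gpd1 was 0.79 log2. In Hep-Bmal1KO chow livers Txnip and Klf10 were lower in males (-0.66 ± 0.09 and -1.43 ± 0.23 log2, adjusted p 6.03e-06 and 8.97e-05), 2 of 7 against 8.95% of all genes.

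On the cdHFD the direction for Gpd1 was the opposite. Males of Hep-Bmal1WT had 83.3 to 188.8 CPM (median 144.1) and females 121.3 to 221.9 CPM (median 155.3), and the difference was -0.29 ± 0.07 log2 (adjusted p 0.0167), 1 of 7 members against 3.61% of all genes. In Hep-Bmal1KO cdHFD livers edgeR called 0 of 7 and 1.67% of all genes, with 2 at an unadjusted p under 0.05 and 0 called by DESeq2, and Gpd1 had -0.28 ± 0.09 log2 (adjusted p 0.106). The sex difference in Gpd1 changed with the diet by -0.92 ± 0.16 log2 in Hep-Bmal1WT (adjusted p 0.000147) and by -0.55 ± 0.15 log2 in Hep-Bmal1KO livers (adjusted p 0.0341). The test of diet by sex called 1 of 7 members and 3.02% of all genes in Hep-Bmal1WT, and 2 of 7 (Gpd1 and Txnip) and 2.89% in Hep-Bmal1KO. The drop of Gpd1 with the cdHFD was thus larger in males than in females of both genotypes.

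The genotype effect itself was not shown to differ between the sexes. The test of genotype by sex called 0 of 7 members with edgeR on each diet, and 0.341% of all genes on chow and 0% on the cdHFD. On each diet 2 members had an unadjusted p under 0.05 and DESeq2 called 0. For Mlxipl on the cdHFD the difference was -0.47 ± 0.16 log2 (95% confidence interval -0.78 to -0.16, adjusted p 0.371). The lower level of Mlxipl in Hep-Bmal1KO livers passed in males alone (-0.57 on chow, -0.88 on the cdHFD) and in females alone (-0.54 and -0.40), with adjusted p from 6.95e-05 to 0.0135.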

How the data were processed

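Livers of 96 mice were profiled by BRB-seq. The authors aligned reads with STAR (mm10) and deposited the values as raw, unnormalized counts of reads per gene, 1 column per mouse. Counting is credited to both HTSeq and FeatureCounts. The sources used here do not say whether reads of 1 molecule were merged, so read depth may overstate the number of molecules counted. Rows naming no gene held 22.6% to 39.9% of reads (median 26.1%) and were left out. Genotype, diet, ZT and sex came from the deposited labels, each library being 1 mouse. The most similar of 144 pairs of mice of a condition differed by 4.24 times the sampling noise (chi-square per degree of freedom). That noise takes each read as independent. No library was treated as a copy.

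Genes with a summed count of at least 100 were kept. Counts were tested in R 4.3.3 with edgeR 4.0.16 (quasi-likelihood F test after TMM scaling over all 96 libraries), and with DESeq2 1.42.0 as an alternative. Only the groups compared entered a fit, with ZT as a factor for genotype and diet, and the 24 combinations of genotype, diet and ZT as a factor for sex and the slope on Mlxipl. P-values were adjusted over all genes by Benjamini-Hochberg and called under 0.05. Rhythm was tested with a sine and cosine pair of 24 h period, and amplitudes and peaks were fitted to log2 CPM (prior count 2) by least squares. Differences are Hep-Bmal1KO minus Hep-Bmal1WT, cdHFD minus chow, and male minus female.

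Each library was placed between the medians of the other mice at its diet and ZT (0 for Hep-Bmal1WT, 1 for Hep-Bmal1KO), and discordant libraries were those past 0.5 toward the other label on both gene sets, members excluded. The tests were tried on simulated counts with known changes. The members and gene lists were chosen with earlier results of these data known. The naming rule covered the members, Arntl, the 5 genes most like Mlxipl, and the 2 genes of smallest p per list and comparison. Gene positions are from RefSeq (GRCm38.p6), matched by symbol. Alternatives were DESeq2, its size factors, a filter of 10 counts in 24 libraries, a minimum summed count of 1, sex as a covariate, either sex alone, no discordant libraries, and each replicate number left out. All of them scaled libraries by TMM or by DESeq2 size factors, so dependence of the diet effects on such scaling was not tested.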

Additional observations from a re-analysis of the deposited data

Results flagged for a closer look

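For each member, the 4 mice of each of the 24 conditions were checked for a mouse whose gap to the nearest other, over the range of the 4, was above Dixon's 95% critical value. This held for 8 of 168 sets, and chance flags about 1 in 20. Of these, 3 were discordant libraries: Pklr at 70.16 CPM and Khk at 543.3 CPM in the same Hep-Bmal1KO cdHFD male at ZT14, where the next values were 40.45 and 231.7 CPM, and Pklr at 96.39 CPM in a Hep-Bmal1KO chow female at ZT10, where the next was 66.47 CPM. Mlxipl stood high at 36.79 CPM in the Hep-Bmal1KO cdHFD female at ZT10 that had little Xist (next 24.46 CPM), and at 75.55 CPM in a Hep-Bmal1KO chow female at ZT18 (next 43.12 CPM). Txnip was 92.33 CPM in a Hep-Bmal1KO cdHFD male at ZT18 (next 78.01 CPM), and Gpd1 221.9 CPM in a Hep-Bmal1WT cdHFD female at ZT10 (next 188.8 CPM). Klf10 stood low at 11.95 CPM in a Hep-Bmal1WT cdHFD female at ZT18 (next 18.25 CPM).

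Tests of a difference between groups singled out 4 results. The daily course of Klf10 in Hep-Bmal1WT livers differed between diets (joint size 0.97 log2, adjusted p 0.0108). The sex difference in Gpd1 changed with diet by -0.92 log2 in Hep-Bmal1WT and by -0.55 log2 in Hep-Bmal1KO livers, and that in Txnip by 0.72 log2 in Hep-Bmal1KO livers (adjusted p 0.0455, and 0.0568 without the discordant libraries).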

How the results depend on the processing

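Beside the counts of members called, each member's value in each comparison was recomputed under every alternative: 1242 values kept their direction and their side of the threshold, 70 no longer passed, 23 newly passed and 28 changed sign. Lower Mlxipl in Hep-Bmal1KO livers passed in 12 of 12 alternatives on each diet, as did lower Mlxipl on the cdHFD in each genotype.

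With females only, the members called numbered 1 for genotype on chow (and 1 of the other CHREBP-linked genes), 3 and 4 for diet in Hep-Bmal1WT and Hep-Bmal1KO, 2 for rhythm in Hep-Bmal1WT chow, and 0 for rhythm in the other 3 groups and for diet by rhythm in Hep-Bmal1WT. With males only, they numbered 2 for genotype on the cdHFD, 1 and 0 for rhythm in Hep-Bmal1WT and Hep-Bmal1KO on the cdHFD, and 0 and 1 for diet by rhythm in Hep-Bmal1WT and Hep-Bmal1KO. Fewer libraries enter these fits. For the counts of members in this section, the shares of all genes called under the alternatives are not given, so a changed count is not read as a trait of the members. With sex as a covariate, 1 was called for genotype by diet, 2 for rhythm in Hep-Bmal1KO chow, 1 for rhythm in Hep-Bmal1WT cdHFD and 1 for diet by rhythm in Hep-Bmal1KO. DESeq2 called 1 for genotype by diet, 1 for genotype by rhythm on chow, 2 and 1 for diet by rhythm in Hep-Bmal1WT and Hep-Bmal1KO and 1 for the slope on Mlxipl, and without a filter 1 was called for diet by rhythm in Hep-Bmal1KO. Without the discordant libraries, an alternative that for the comparisons of sex within groups was chosen after seeing the data, 2 were called for genotype by diet, 2 and 1 for sex in Hep-Bmal1WT and Hep-Bmal1KO cdHFD, and 1 for diet by sex in Hep-Bmal1KO.

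When 1 replicate number at a time was dropped, the members called ranged from 3 to 5 (other genes 6 to 14) for genotype on chow, 2 to 4 on the cdHFD, 0 to 1 for genotype by diet, 1 to 5 for rhythm in Hep-Bmal1WT chow, 0 to 1 in Hep-Bmal1KO chow, 1 in Hep-Bmal1WT cdHFD, 0 to 1 in Hep-Bmal1KO cdHFD, 0 to 1 for diet by rhythm in Hep-Bmal1WT, 1 to 3 for sex and 0 to 1 for the slope.

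The changes of sign were all in values that did not pass. For genotype, they were Mlx on chow (0.00897, males only) and on the cdHFD Txnip (-0.139 with females only, -0.00738 to 0.115 over the replicates left out) and Klf10 (0.0966, females only). For genotype by diet, they were Mlxipl (0.16 with females only, -0.193 to 0.0425 over the replicates left out) and Pklr (-0.0789 to 0.248). For sex, they were Khk (-0.02 without the discordant libraries, -0.0182 to 0.035 over the replicates left out), Mlx (-0.031 to 0.179) and Pklr (-0.0392 to 0.0623). For the slope on Mlxipl, they were Txnip (-0.242 with males only, -0.0658 to 0.345 over the replicates left out, and -0.323 and -0.284 in Hep-Bmal1WT and Hep-Bmal1KO cdHFD), Mlx (-0.00333 to 0.0246, and -0.143 and -0.199 in Hep-Bmal1WT cdHFD and Hep-Bmal1KO chow), Pklr and Khk (-0.0118 and -0.0792 in Hep-Bmal1WT chow) and Gpd1 (0.204 in Hep-Bmal1KO cdHFD). For the sex comparisons added later, without the discordant libraries, they were Pklr in Hep-Bmal1KO chow (0.0738), Mlx in Hep-Bmal1WT cdHFD (-0.0163), genotype by sex for Mlxipl on chow (0.0464) and Gpd1 on the cdHFD (0.00726), and diet by sex in Hep-Bmal1KO for Mlxipl (-0.162) and Khk (-0.0931). The cause of these changes was not tested.

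No paired analysis was possible because the labels tie no mouse of one group to a mouse of another: they give each mouse its own number, and do not say which mice were littermates. The replicate numbers 1 to 4 only name the mice of a condition in the order of the deposited list. They follow sex, since 22 of 24 libraries numbered 1 or 2 were male in each case, and 21 and 22 of 24 numbered 3 and 4 were female, so leaving out a number also shifts the balance of the sexes. Depth limits Klf10 most, whose lowest count was 8 reads.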
